A study of Arabidopsis thaliana with 18 samples.

Results

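The 150 genes described here were the ones that stood lowest in the gemin2 mutant of Arabidopsis thaliana in every condition of the study. They were chosen from the gene counts themselves. Counts were scaled to the usual CPM unit, relative to each library's sum over nuclear genes without 4 rRNA genes, and for each condition a change d was formed as log2 of the mean gemin2 CPM plus 0.5 over the mean WT CPM plus 0.5. The members are the 150 genes with the smallest maximum of the 3 d values among 17841 genes with a mean of at least 2 CPM, out of 33602 genes in all. The d values are therefore given as a description, with no test.

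Whole plants were sequenced in 18 libraries of poly(A) RNA, 3 in each of 6 groups. The gemin2 mutant, named gemin2-1 in the deposited tables, and the wild type (WT), both of ecotype Col, grew on MS medium under continuous white light and were collected aged 9 days. For each genotype 1 group stayed at 22 °C, 1 group was moved to 10 °C for 1 h and 1 group for 24 h, and the libraries of a group are called A, B and C after the deposited columns. The labels give 1 mutant line. They do not say that replicates were grown apart, and each p-value therefore reflects only how far these samples spread, which may be technical. In whole plants fewer cells of a type and less RNA per cell cannot be told apart. Library totals ran from 15675913 to 53766089 counts. The most unlike library was C of the mutant at 22 °C, where chloroplast genes took 17.6% of counts, against 0.232 to 3.17% in the other libraries, and without it the rule chose 142 of the 150 members again. Library A of gemin2 stood apart from B and C after 1 h and 24 h. In WT library A did so after 24 h. The values are given beside PSAE-1.

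GEMIN2 encodes a protein of the complex that loads Sm proteins onto the small nuclear RNAs of the spliceosome, the machine that removes introns. Anthocyanins, the red and purple pigments of Arabidopsis seedlings, are made from flavonoid precursors by a short chain of late enzymes. A complex of a MYB protein such as PAP1, a bHLH protein such as TT8 and the WD40 protein TTG1 switches these enzymes on, and cold and light are known to raise them.

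The promoters of late anthocyanin genes are shown first, because 12 of the 150 members belong to this pathway. Each window holds the 250 bases before the annotated gene start, 5′ to 3′ on the gene's strand, from the RefSeq sequence of TAIR10. Capitals mark matches on either strand to 1 of 6 motifs: the G-box CACGTG, the evening element core AATATCT, the DRE/CRT core GCCGAC, the W-box core TTGACC, the telo-box AAACCCT and site II TGGGCC. DFR lies at chr5:17165919-17166168 and UF3GT at chr5:21938370-21938619, both on the minus strand, and each holds 2 G-boxes, with 1 site II match in UF3GT. PAP1 lies at chr1:21235138-21235387 on the minus strand and holds 1 G-box and 1 W-box core. TT8 lies at chr4:6181773-6182022 on the plus strand and holds no match.
DFR: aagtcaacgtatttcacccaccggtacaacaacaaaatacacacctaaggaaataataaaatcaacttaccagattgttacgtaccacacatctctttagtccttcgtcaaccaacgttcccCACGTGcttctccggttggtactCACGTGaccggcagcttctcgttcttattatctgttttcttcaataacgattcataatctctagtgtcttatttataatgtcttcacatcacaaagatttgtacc
UF3GT: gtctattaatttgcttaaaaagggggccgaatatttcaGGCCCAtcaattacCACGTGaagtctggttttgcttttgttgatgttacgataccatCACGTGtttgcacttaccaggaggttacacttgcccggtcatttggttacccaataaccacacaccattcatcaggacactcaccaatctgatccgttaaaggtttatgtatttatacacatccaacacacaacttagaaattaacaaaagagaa
PAP1: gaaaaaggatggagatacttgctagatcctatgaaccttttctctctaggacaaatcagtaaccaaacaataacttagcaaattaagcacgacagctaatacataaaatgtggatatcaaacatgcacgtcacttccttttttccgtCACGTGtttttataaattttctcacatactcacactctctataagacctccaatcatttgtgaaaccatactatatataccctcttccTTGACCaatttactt
TT8: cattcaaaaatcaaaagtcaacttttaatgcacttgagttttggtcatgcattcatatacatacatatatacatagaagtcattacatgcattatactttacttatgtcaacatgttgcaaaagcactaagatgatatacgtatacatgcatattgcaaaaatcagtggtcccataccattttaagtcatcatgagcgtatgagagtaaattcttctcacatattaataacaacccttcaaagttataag
A G-box was found in 3 of the 12 anthocyanin members, DFR, UF3GT and PAP1. Over all 149 members with such a window the G-box was in 6.71%, against 9.17% of 17769 windows of all genes of the rule. The evening element core was in 8.05% of the members' windows, against 9.49% of all, and the W-box core in 10.1%, against 12.8%. The DRE/CRT core, which CBF proteins bind in cold-induced genes, was in 2 of the 149 windows (1.34%), against 3.04% of all. The telo-box was in 5.37%, against 9.69%, and site II in 13.42%, against 19.03%. A match is a run of letters and not a shown binding site.

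All libraries of the mutant stood below all WT libraries for most members, as the rule makes likely. At 22 °C this held for 146 of the 150 members, after 1 h for all 150 and after 24 h for 143, and it holds for 12.1%, 15.1% and 21.8% of the 17841 genes in those conditions. All 9 gemin2 libraries stood below all 9 WT libraries for 60 members, against 1.08% of the genes. The rule used these contrasts, so nothing is read from those shares. The median d of the members was -1.06 at 22 °C, -1.14 after 1 h and -1.21 after 24 h, against medians of 0.12, 0.20 and 0.05 over all genes of the rule. Of the members, 56 had all 3 d values at -1 or lower, which is a level of at most 1/2 of WT on this scale. The lowest of the 3 d values was after 24 h in 68 members (45.3%), after 1 h in 50 (33.3%) and at 22 °C in 32 (21.3%). Over the 17841 genes of the rule it was at these times in 8674, 3365 and 5802 genes.

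**Figure D1:**
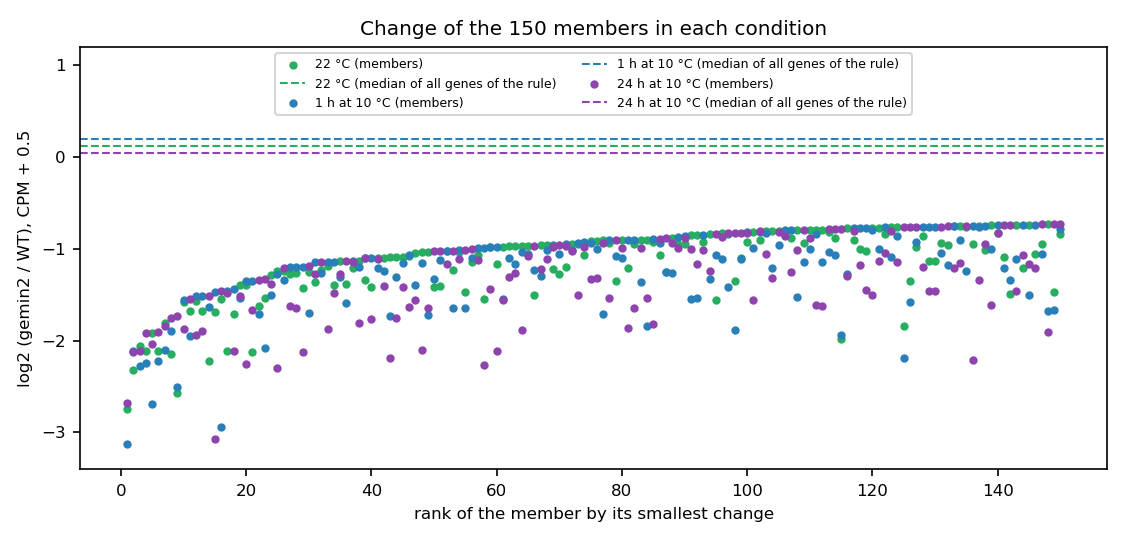
Change d of each member (log2 of gemin2 over WT, CPM plus 0.5) at 22 °C and with 1 h and 24 h of cold, with members ordered by the highest of their 3 values, and dashed lines at the median of all genes of the rule. The highest value runs from -2.68 in GSTF12 to -0.73 in AT4G01915, and single conditions reach down to -3.12.

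The rule's limit falls in a dense stretch of values. The last members were AT2G25980, EXPR and AT4G01915, with a highest d of -0.73 each, and the first genes left out were SP1L4, DAR7 and AT1G27420, with a highest d of -0.72 each. A member near this limit differs little from the next gene. Among the members themselves d was most even in AT1G60690, an oxidoreductase, at -0.85, -0.80 and -0.86 in the 3 conditions in their order. AT1G52905, AT1G01250, VLN1 and AT4G36840 followed, each with a range under 0.09 on the log2 scale. It was least even in BGLU1 (-1.69, -1.47 and -3.07), AT1G65486 (-1.55, -2.94 and -1.46), AT1G34580 (-0.94, -0.75 and -2.21), PCC1 (-1.84, -2.19 and -0.76) and AT2G29320 (-1.55, -0.99 and -2.26).

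The members were shorter and had fewer introns than the other genes of the rule. Their median gene length was 1726 bases, against 2291 over all genes of the rule, and their median exonic length was 1267 bases, against 1603. They had a median of 2 introns, against 4, and 20% had no intron, against 15.3%. By annotation 141 members are protein coding, 4 are long noncoding RNAs, 4 are pseudogenes and 1 had no match. These are 94%, 2.67%, 2.67% and 0.667%, against 97.5%, 0.914%, 0.488% and 0.398% of all genes of the rule. Chromosome 1 holds 49 members, chromosome 2 holds 28, chromosome 3 holds 24, chromosome 4 holds 25 and chromosome 5 holds 24. The shares are 32.7%, 18.7%, 16%, 16.7% and 16%, against 26.6%, 15.3%, 19.7%, 15.1% and 23.25% of all genes of the rule. The median WT level of the members was 17.5 CPM, against 15.7 CPM over all genes of the rule.

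GEMIN2 itself (AT1G54380, chr1:20297965-20300908, minus strand) was the tenth member in the order of the rule. At 22 °C its level was 4.36, 4.33 and 5.23 CPM in gemin2 libraries A, B and C and 12.8, 14.98 and 16.9 CPM in the WT libraries. After 1 h it was 2.73, 3.27 and 3.49 CPM in gemin2, against 9.77, 9.46 and 11.5 CPM in WT. With 24 h of cold it was 5.55, 5.30 and 5.92 CPM in gemin2, against 20.1, 23.3 and 22.2 CPM in WT. The groups did not overlap in any condition, and reads of the gene remained in all mutant libraries. Of the other 3 genes of snRNP assembly listed, SPF30, PRMT5 and ICLN, none was a member, and their d at 22 °C was 0.59, 0.28 and 0.68.

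Anthocyanin synthesis and its control account for 12 members. Of 12 listed regulators of the pathway with a sufficient level, PAP1 (AT1G56650) and TT8 (AT4G09820) were members, and of 20 listed flavonoid enzymes and transporters 9 were. Those 9 are F3'H, which adds a hydroxyl group to the B ring, DFR and LDOX, which form the coloured anthocyanidin, the sugar transferases UGT78D2, UF3GT and UGT75C1, the acyltransferases 5MAT and AAT1, and GSTF12, which carries anthocyanin to the vacuole. AT1G03495, an acyltransferase of the same family as 5MAT and AAT1, is the twelfth gene of the group and was added to it after its values were seen. The other 11 listed genes were not members. Of these PAL1, PAL2, C4H, 4CL3, CHS, CHI and F3H act early in the chain, and FLS1 leads to flavonols. CHS had a d of -1.14, -1.45 and -0.58 at 22 °C, 1 h and 24 h, and C4H of 0.09, 0.41 and 0.11. PAL1 had -0.25, -0.02 and -0.32, and PAL2 had -0.08, -0.002 and -0.42. The d of 4CL3 was -0.73, -1.18 and -0.15, and that of CHI was -0.34, -0.68 and -0.44. F3H had -0.67, -0.74 and -0.29, and FLS1 had -0.52, -0.62 and -0.17. The other 3 modify flavonoids or related phenolics late, with a d of -0.46, -0.14 and -1.09 in SCPL10, 0.34, 0.48 and -0.30 in BGLU10, and -0.49, -0.38 and 0.001 in UGT84A2. The partner TTG1 had a d of 0.40, 0.50 and 0.25, and MYBL2, a repressor of the pathway, 0.76, 1.95 and -0.03. Other listed regulators outside the members had a d below 0 in all 3 conditions, some of them near 0. These were MYB111 (-1.35, -2.10 and -0.27), HYH (-0.84, -0.78 and -0.37) and MYB12 (-0.06, -0.38 and -0.97). HY5 had -0.23, -0.18 and -0.02, and LBD37 had -0.52, -0.14 and -0.71. LBD38 had -0.33, -0.03 and -0.10, and LBD39 had -0.09, -0.40 and -0.56. The list was not split into activators and repressors. EGL3 had a d of 0.05, -0.42 and -0.53. The median d of the 12 regulators with a sufficient level was -0.28, -0.39 and -0.45.

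GSTF12 (AT5G17220, chr5:5658460-5659386, plus strand) led the list. At 22 °C it had 5.15, 2.30 and 2.73 CPM in gemin2, against 35.2, 21.5 and 19.96 CPM in WT. With 1 h of cold it had 3.73, 2.904 and 1.78 CPM in gemin2, against 29.8, 26.2 and 28.9 CPM in WT. The values after 24 h were 40.5, 16.8 and 27.9 CPM in gemin2, against 208, 149 and 196 CPM in WT. Both genotypes were highest after 24 h, and the highest gemin2 library of that time stood above all WT libraries at 22 °C.

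PAP1 (chr1:21233595-21235137, minus strand) had 2.27, 1.82 and 1.37 CPM in gemin2 at 22 °C, against 7.95, 6.72 and 6.13 CPM in WT. After 1 h it had 0.783, 0.847 and 0.717 CPM in gemin2, against 4.22, 4.23 and 4.87 CPM in WT. The values after 24 h were 11.8, 13.04 and 16.4 CPM in gemin2, against 41.3, 36.9 and 45.0 CPM in WT. Every mutant library was lower than every WT library of the same condition, and the level in both genotypes was lowest after 1 h and highest after 24 h. TT8 averaged 0.615 ± 0.094 CPM in gemin2 and 4.69 ± 1.96 CPM in WT at 22 °C (SD, n = 3 each). After 1 h it averaged 1.03 ± 0.28 CPM in gemin2 and 4.24 ± 1.05 CPM in WT. With 24 h of cold it averaged 9.04 ± 2.16 CPM in gemin2 and 26.7 ± 2.66 CPM in WT. DFR averaged 7.40 ± 4.32 CPM in gemin2 and 39.1 ± 3.89 CPM in WT at 22 °C, and library A of gemin2, at 12.3 CPM, stood above B and C at 5.53 and 4.33 CPM. After 24 h DFR averaged 29.7 ± 8.37 CPM in gemin2 and 131 ± 16.6 CPM in WT. UGT78D2, which acts on other flavonoids as well, was the anthocyanin member with the highest level per length and had the smallest change at 22 °C, at 60.3 ± 7.13 CPM in gemin2 and 111 ± 9.90 CPM in WT. Summed over the 12 genes, the level at 22 °C was between 110 and 149 CPM in gemin2 and between 309 and 392.2 CPM in WT. After 1 h the sum was between 124 and 142 CPM in gemin2 and between 355 and 393 CPM in WT. After 24 h the sum was between 343 and 475 CPM in gemin2 and between 1148 and 1514 CPM in WT. The highest mutant sum after 24 h was above the highest WT sum at 22 °C.

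**Figure D2:**
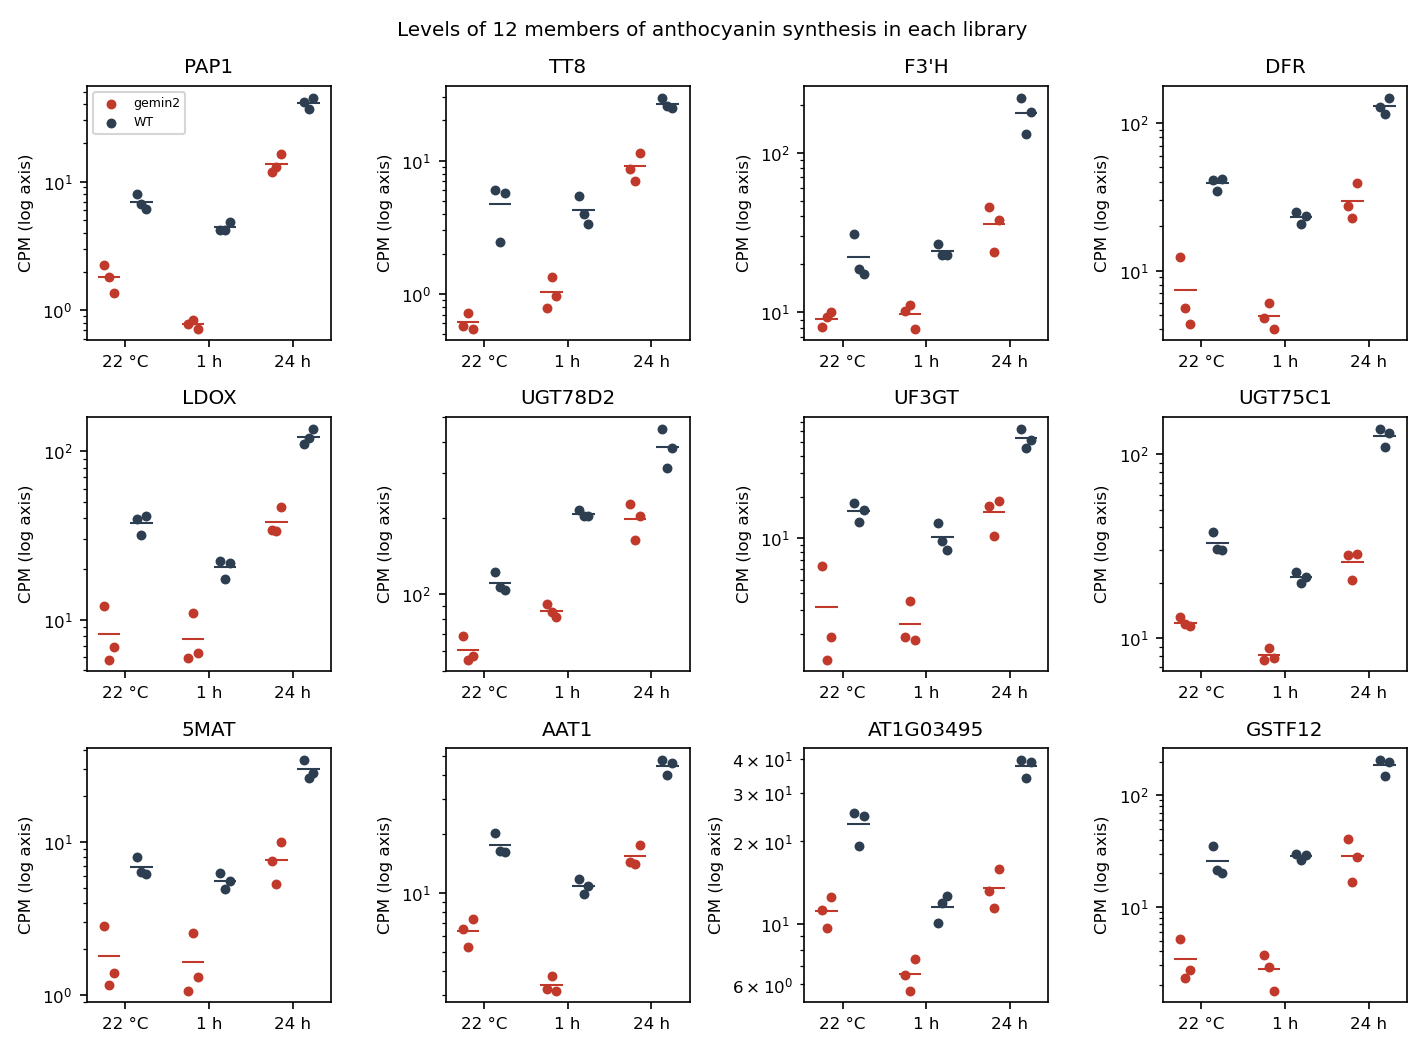
Levels of the 12 anthocyanin members in CPM on log axes, 1 point per library and a bar at the mean of 3, with gemin2 left of WT, at 22 °C and with 1 h and 24 h of cold. In each panel the gemin2 points lie below the WT points of the same condition, and the sum over the 12 genes is highest after 24 h, from 343 to 475 CPM in gemin2 and from 1148 to 1514 CPM in WT.

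A second group of 7 members works in photosynthesis. This group and the 2 that follow were formed by hand after the values were seen. Genes of these roles were not counted among all genes of the rule, so the sizes of the groups are no result. PSAE-1 is a subunit of photosystem I, LHCB4.3 a light-harvesting protein of photosystem II, RBCS3B a small subunit of Rubisco and FBA2 a plastid fructose-bisphosphate aldolase. NDF2, PPL2 (also known as PnsL1) and CRR7 belong to the chloroplast NDH complex, which carries cyclic electron flow around photosystem I, or to its assembly. LHCB4.3 (AT2G40100) had 15.3, 11.7 and 13.04 CPM in gemin2 at 22 °C, against 103, 67.9 and 73.6 CPM in WT. By 24 h it had 13.7, 4.097 and 6.998 CPM in gemin2, against 31.2, 24.8 and 29.6 CPM in WT. NDF2 (AT1G64770) averaged 49.9 ± 3.92 CPM in gemin2 and 149 ± 7.21 CPM in WT at 22 °C, and 34.7 ± 2.11 CPM in gemin2 and 134 ± 4.86 CPM in WT after 24 h (SD, n = 3 each). Its libraries lay close together within each group. FBA2 averaged 2745 ± 256 CPM in gemin2 and 5867 ± 448 CPM in WT at 22 °C.

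PSAE-1 was 1 of the 7 members whose groups overlapped after 24 h. It then had 1338, 496 and 541 CPM in gemin2, against 1312, 1401 and 1446 CPM in WT, so library A of the mutant lay within the WT range. Library A of gemin2 was the highest of its group after 24 h for 94 of the 150 members, library B for 23 and library C for 33. In WT after 24 h these numbers were 77, 32 and 41, and in gemin2 after 1 h they were 69, 59 and 22. The mean chi-square of a gene between a pair of libraries was taken with chloroplast and rRNA genes kept, and it grows with depth. In gemin2 at 22 °C it was 42.1 for A with B, 307 for A with C and 222 for B with C. In gemin2 after 24 h it was 39.7 and 34.3 for A with B and C, and 9.32 for B with C. In WT after 24 h it was 31.3 and 17.4 for A with B and C, and 8.09 for B with C. After 1 h it was 68.5 and 54.2 in gemin2 for A with B and C, and 7.74 for B with C. The WT values after 1 h were 7.62 and 9.15 for A with B and C, and 18.3 for B with C. Without library A of gemin2 at 24 h the rule chose 135 of the 150 members again, and without A at 1 h it chose 138. RBCS3B had the highest level per length of the members, at a WT mean of 14496 CPM per kb of exon, and its reads are uncertain because RBCS genes have near-identical copies. The listed leaf markers RBCS1A, CAB3 and LHCB1.1 were not members, and they differed in direction. At 22 °C, 1 h and 24 h RBCS1A had a d of -0.33, -0.38 and -0.13, and CAB3 of 0.43, 1.06 and 0.07. LHCB1.1 had a d of -0.18, 0.57 and -0.59. None of the 3 was at 0, and their summed level after 24 h was between 19600 and 24510 CPM in gemin2 and between 26730 and 27450 CPM in WT, while after 1 h it was higher in every gemin2 library, between 36390 and 39480 CPM, against 27300 to 29580 CPM in WT. Their part in the members' values was not tested.

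Members of sugar use and the cell wall number 7. SUS4 (AT3G43190), a sucrose synthase, had 3.28, 4.50 and 5.07 CPM in gemin2 at 22 °C, against 15.3, 11.7 and 15.8 CPM in WT. ATFRUCT5 is annotated as a beta-fructofuranosidase, and SFP2 (AT5G27360) as a sugar porter of the major facilitator family. The cell wall members are the cellulase ATCEL2, the pectin methylesterase PME5 and the expansin-like genes ATEXPL2 and EXPR. Over the 7 genes d ran from -1.63 to -0.77 at 22 °C, from -1.71 to -0.86 after 1 h and from -1.86 to -0.73 after 24 h. Of the markers of phloem, the sugar-conducting tissue, SUC2 had a d of -0.43, -0.60 and -1.20 and APL of 0.06, 0.001 and -0.28 at 22 °C, 1 h and 24 h. Summed over SUC2 and APL the level after 24 h was between 81.2 and 81.9 CPM in gemin2 and between 149 and 181 CPM in WT, and at 22 °C between 121 and 125 CPM in gemin2 and between 149 and 159 CPM in WT. Their part in the members' values was not tested.

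Another group of 13 members acts on genes and their RNA, with GEMIN2 among them. DML1 (AT2G36490, also called ROS1), a DNA demethylase, averaged 14.9 ± 0.38 CPM in gemin2 and 32.0 ± 3.97 CPM in WT at 22 °C, and 3.75 ± 0.29 CPM in gemin2 and 12.7 ± 0.76 CPM in WT after 24 h (SD, n = 3 each). ATCPSF30 (AT1G30460), a subunit of the factor that cleaves and polyadenylates messenger RNA, averaged 17.3 ± 1.55 CPM in gemin2 and 33.0 ± 2.86 CPM in WT at 22 °C. After 24 h it averaged 22.1 ± 3.89 CPM in gemin2 and 55.8 ± 4.15 CPM in WT. AGL24 (AT4G24540), a MADS box promoter of flowering, was the 1 member among 7 flowering genes with a sufficient level, at 2.01 ± 0.44 CPM in gemin2 and 5.93 ± 0.70 CPM in WT at 22 °C. The homeobox gene WOX1, the zinc finger gene NTT, TIFY8, and LSH3 and LSH10 of the LIGHT-DEPENDENT SHORT HYPOCOTYLS-like family also belong to this group. A TCP factor (AT1G35560), a RWP-RK factor (AT4G38340), a MYB-like factor (AT3G25790) and an AP2/ERF factor (AT1G01250) complete the group. Its d ran from -1.58 to -0.80 at 22 °C, from -1.89 to -0.78 after 1 h and from -1.88 to -0.82 after 24 h.

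The other 111 members fall in no group of this kind. MT3 (AT3G15353), a metallothionein that binds copper and other metals, averaged 413 ± 28.7 CPM in gemin2 and 812 ± 227 CPM in WT at 22 °C. AT1G31690, a copper amine oxidase, had 9.61, 11.6 and 11.2 CPM in gemin2 at 22 °C, against 45.9, 36.6 and 43.9 CPM in WT. CSD2, a copper/zinc superoxide dismutase, had a d of -0.77, -1.09 and -0.80 in the 3 conditions. CRK28, a cysteine-rich receptor-like kinase, had 0.900, 0.722 and 1.29 CPM in gemin2 at 22 °C, against 5.33, 5.63 and 6.59 CPM in WT. None of 11 clock genes and none of 11 cold genes that reached the level minimum was a member. Floral and seed marker genes summed to between 0 and 0.344 CPM and between 0.492 and 7.56 CPM over all libraries, and root markers were present in all of them. At 22 °C guard cell markers summed to 42.7 to 48.2 CPM in gemin2 and 30.9 to 35.9 CPM in WT. Xylem markers then summed to 72.2 to 77.7 CPM in gemin2 and 53.6 to 61.8 CPM in WT. After 24 h the ranges of the genotypes overlapped for both, with xylem at 40.3 to 43.2 CPM in gemin2 and 43 to 44.7 CPM in WT. Their part in the members' values was not tested.

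Some members share reads or lie side by side. In 12 pairs, with 23 members in all, at most 3 genes lie between the partners, and in 5 of the pairs the annotated genes overlap. These 5 are ATMRD1 with HEI10, GLP8 with AT3G05932, AT1G80320 with AT1G80325, CYP712A1 with AT2G42247, and AT1G73600 with CPuORF32. The library kit does not mark strand, so overlapping genes cannot be told apart and the members of such a pair are not separate observations. ATMRD1 and HEI10, a gene of meiotic crossover formation, had 3.6, 4.98 and 5.19 CPM and 4.68, 7.08 and 6.91 CPM in gemin2 at 22 °C, against 19.2, 22.3 and 20.9 CPM and 21.3, 25.7 and 22.3 CPM in WT. GLP8, a germin-like protein, had 2.56, 1.86 and 2.07 CPM in gemin2 at 22 °C, against 13.03, 10.8 and 9.17 CPM in WT. The other 7 pairs are ATCEL2 with LEA3, AT1G65486 with AT1G65490, GG1 with TRM5, HOS3-1 with AT4G36840, AT4G38340 with AT4G38370, AT4G38370 with ATEXPL2, and AT5G34790 with AT5G34800.

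Members close to GEMIN2 on the chromosome were counted. None of the 70 other genes of the rule within 200 kb was a member. Within 500 kb there were 3 among 173 genes, ATMRD1 and HEI10 at 336 and 334 kb on the lower side and ATFRUCT5 at 268 kb on the upper side. Within 1 Mb there were 5 of 325 genes (1.54%), with AT1G52905 and PAP1 added, and members make up 0.841% of all genes of the rule. ATMRD1 and HEI10 share reads, as given above.

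**Figure D3:**
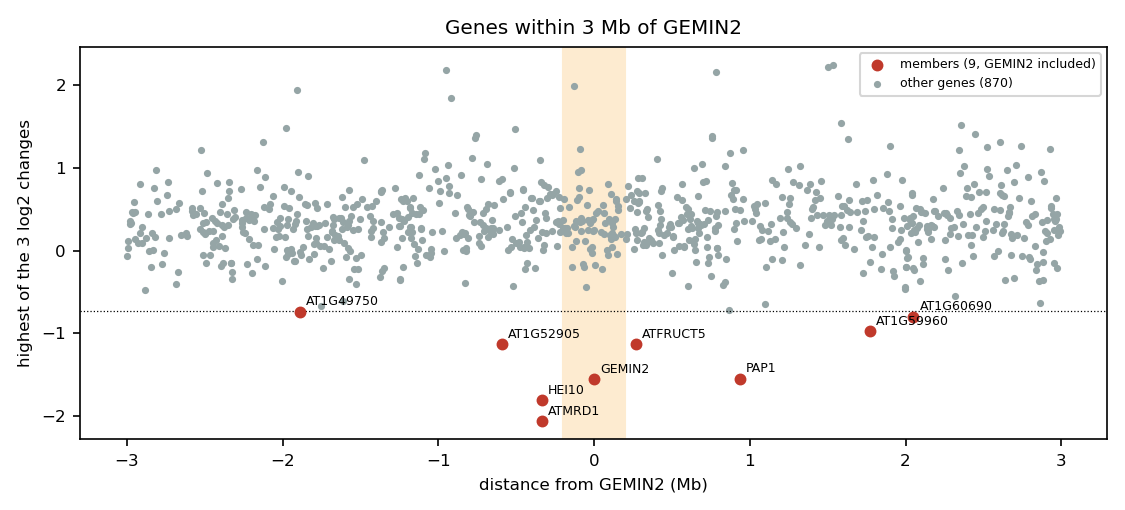
Highest of the 3 log2 changes (gemin2 over WT) of genes within 3 Mb of GEMIN2 against their distance from it in Mb, with members in red, other genes in grey, the rule's limit as a dotted line and 200 kb on either side shaded. GEMIN2 is the only member in the shaded band, and PAP1 lies 935 kb away.

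The response to cold within a genotype was not used by the rule, although it rests on the same libraries, and was tested with edgeR's quasi-likelihood test over 21918 genes. Adjusted p-values are Benjamini-Hochberg values over all these genes, and a gene was called at an adjusted p under 0.05. After 24 h at 10 °C, 36 members rose in gemin2 and 56 fell (24% and 37.3% of the members, against 30.1% and 30% of all genes tested). In WT 45 rose and 50 fell (30% and 33.3%, against 27.1% and 28.6%). After 1 h, 11 members rose in gemin2 and 8 fell (7.33% and 5.33%, against 6.27% and 3.16%), and in WT 29 rose and 12 fell (19.3% and 8%, against 14.7% and 10.8%). The members' median log2 change was 0.13 in gemin2 and 0.23 in WT after 1 h, and -0.16 and -0.14 after 24 h, where the medians over all genes lay between -0.02 and 0. In gemin2 after 24 h the share of members that rose was below, and the share that fell above, the share of all genes, and nothing particular to the members is read from these counts. For 8 members the mean CPM was under the minimum of the rule without the libraries of 1 condition. Leaving out those that needed the higher condition, 34 members rose and 54 fell in gemin2 after 24 h and 44 rose and 48 fell in WT, and 26 rose in WT after 1 h. The 2 genotypes share no library in these contrasts. The rule kept genes with a low d in every condition, which favours like cold responses, so the overlap of calls is only a description. After 24 h, 31 members rose in both genotypes, which is 86.1% of the 36 in gemin2 and 68.9% of the 45 in WT. Falls in both were 45, which is 80.4% of the 56 in gemin2 and 90% of the 50 in WT. Of all genes tested, 21.5% rose in both and 21.5% fell in both. After 1 h, 9 members rose in both genotypes (background 5.2%) and 6 fell in both (background 1.98%). Over all genes the shared rises and falls after 24 h as shares of those in gemin2 and in WT were 71.3% and 79.4% for rises, and 71.9% and 75.3% for falls. Whether the members' cold responses differ between genotypes was not tested, because the difference is made of the d values that chose them.

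Of the 12 anthocyanin members 11 rose in gemin2 after 24 h and all 12 rose in WT, where 30.1% and 27.1% of all genes tested did. The median log2 change of the 12 was 2.11 in gemin2 and 1.82 in WT. TT8 rose by 3.93 ± 0.33 on the log2 scale in gemin2 (adjusted p = 4.66e-09) and by 2.44 ± 0.26 in WT (adjusted p = 1.42e-07). PAP1 rose by 2.97 ± 0.18 in gemin2 (adjusted p = 3.98e-11) and by 2.52 ± 0.16 in WT (adjusted p = 1.12e-10). GSTF12 rose by 3.14 ± 0.38 in gemin2 and by 2.81 ± 0.34 in WT, and F3'H by 2.05 in gemin2 and by 2.95 ± 0.28 in WT. AT1G03495 is the gene that did not pass in gemin2, at 0.35 (adjusted p = 0.0743), and rose by 0.66 in WT. After 1 h fewer of them passed, mostly as falls: 4 of the 12 fell and 1 rose in gemin2 (3.16% and 6.27% of all genes), and 5 fell and 1 rose in WT (10.8% and 14.7%). PAP1 fell by 1.13 ± 0.22 in gemin2 after 1 h (adjusted p = 0.00147), and AAT1 fell by 0.85 ± 0.17 (adjusted p = 0.00212). UGT78D2 was the 1 that rose after 1 h in both genotypes. Libraries of 24 h and 22 °C did not overlap for PAP1, TT8, GSTF12 or F3'H in either genotype.

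The member with the largest difference between 24 h and 22 °C was NRT2.1 (AT1G08090), the inducible high-affinity nitrate transporter of roots. After 24 h it had 15.1, 7.93 and 9.16 CPM in gemin2 and 27.1, 17.95 and 24.1 CPM in WT. At 22 °C each gemin2 library held 2 counts, and the WT libraries held 10, 23 and 10 counts. Summed over libraries the level after 24 h was 142 times that at 22 °C in gemin2, with a 95% exact interval of 65.0 to 388 that covers counting error only, and 28.2 times in WT, with an interval of 20.9 to 39.1. Its mean over the libraries of 22 °C and 1 h was 0.431 CPM, so it reached the rule's minimum of 2 CPM through the 24 h libraries alone, and its rise is given as a description with no p-value. NRT2.1 was the 1 member among 5 listed nitrate genes with a sufficient level, and its d at 22 °C rests on these few counts. The 12 root markers summed after 24 h to between 257 and 306 CPM in gemin2 and between 270 and 344 CPM in WT, and after 1 h to between 208 and 237 CPM in gemin2 and between 278 and 312 CPM in WT, with none of the 12 at 0 in every library. At 22 °C the sum was between 230 and 250 CPM in gemin2 and between 239 and 283 CPM in WT. PHT1;1 and IRT1 weigh most in these sums, at 119 and 83.6 CPM in gemin2 after 24 h. The 9 markers with a sufficient level had a median d of -0.15, -0.54 and -0.37 at 22 °C, 1 h and 24 h. After 24 h their d ran from -0.66 in EXPA18 to 0.33 in IRT1. The markers' part in the values of NRT2.1 was not tested.

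Falls after 24 h were led by AT5G35940, a mannose-binding lectin, at -4.27 ± 0.58 in gemin2 and -3.19 ± 0.42 in WT on the log2 scale. This gene reached the minimum level only with the 22 °C libraries (1.33 CPM over the others), so no p-value is given. It had 0, 0.301 and 0 CPM in gemin2 after 24 h, against 2.52, 2.06 and 1.95 CPM at 22 °C, so the size of its fall in gemin2 rests on libraries at or near 0. SFP2 had 0.487, 0.451 and 0.418 CPM in gemin2 after 24 h, against 7.56, 9.385 and 8.31 CPM at 22 °C, and 2.03, 4.13 and 2.71 CPM in WT, against 19.8, 20.3 and 20.2 CPM. It fell by 4.16 ± 0.22 on the log2 scale in gemin2 and by 2.76 ± 0.16 in WT. AT5G42530 fell by 3.00 ± 0.32 in gemin2 and by 2.88 ± 0.29 in WT. AT2G29320 and AT1G78450, a heme-binding SOUL protein, fell by 2.93 ± 0.28 and 2.83 ± 0.39 in gemin2, and AT2G04790 and AT1G19960 fell by 2.70 ± 0.24 and 2.27 ± 0.20 in WT. The size of the fall of AT1G78450 rests on 5, 2 and 6 counts in gemin2 after 24 h. AT1G78450 reached the minimum level only with the 1 h libraries (1.57 CPM over the others). Of the 7 photosynthesis members 5 fell in each genotype after 24 h and none rose, where 30% of all genes tested fell in gemin2 and 28.6% in WT. PPL2 fell by 1.82 in gemin2 and by 2.14 in WT, RBCS3B by 1.41 and 1.88, and CRR7 by 1.40 and 1.19. LHCB4.3 passed in WT alone, at -1.56, and NDF2 in gemin2 alone, at -0.46. FBA2 did not pass in either, at -0.21 in gemin2 and -0.31 in WT. Of the 13 members that act on genes and RNA, 4 rose and 5 fell in gemin2, and 3 rose and 4 fell in WT, which is near the shares of all genes (30.1% and 30% in gemin2, 27.1% and 28.6% in WT) and is no result about the group. DML1 fell by 1.92 in gemin2 and by 1.37 in WT, and TIFY8 by 1.61 and 1.08. WOX1 rose by 1.43 in gemin2 (adjusted p = 0.000753), and GEMIN2 rose by 0.34 in gemin2 and by 0.52 in WT.

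After 1 h the largest rises were in 2 genes of unknown function, AT5G20670 and AT5G08760. AT5G20670 had 10.3, 6.08 and 6.86 CPM in gemin2 after 1 h, against 2.38, 1.79 and 1.56 CPM at 22 °C, and 29.6, 30.1 and 27.4 CPM in WT, against 4.34, 4.29 and 3.34 CPM. It rose by 2.12 ± 0.27 on the log2 scale in gemin2 (adjusted p = 1.46e-05) and by 2.99 ± 0.26 in WT (adjusted p = 7.76e-08). After 24 h its levels were 1.61, 0.977 and 0.94 CPM in gemin2 and 5.27, 4.42 and 3.36 CPM in WT. AT5G08760 rose by 2.01 ± 0.50 in gemin2 (adjusted p = 0.0124), with 35.2, 8.53 and 11.7 CPM after 1 h, and by 2.71 ± 0.50 in WT. Without library A of gemin2 at 1 h its log2 change in gemin2 was 0.96 (adjusted p = 0.179), and without library B at 22 °C it was 1.90 (adjusted p = 0.062). ATEXPL2 and CRK28 rose by 1.43 ± 0.26 and 1.21 ± 0.24 in gemin2 after 1 h. In WT AT5G47550, a cystatin-like gene, AT1G65486 and the cytochrome P450 gene CYP78A9 rose by 2.12 ± 0.47, 2.07 ± 0.37 and 1.73 ± 0.23, and AT1G65486 reached the level minimum only with the 1 h libraries. The falls after 1 h were smaller: AT1G03495 was lowest in WT at -0.88 ± 0.16, and after PAP1 the lowest in gemin2 was AT3G25790 at -0.96 ± 0.26, a call lost without any of 5 single libraries (highest adjusted p = 0.0882). The counts after 1 h in gemin2 depend on single libraries: 4 members rose without library B at 22 °C and 5 without library A at 1 h. With any 1 of the 6 libraries left out, 4 or 5 members fell in gemin2, against 8 with all of them.

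**Figure D4:**
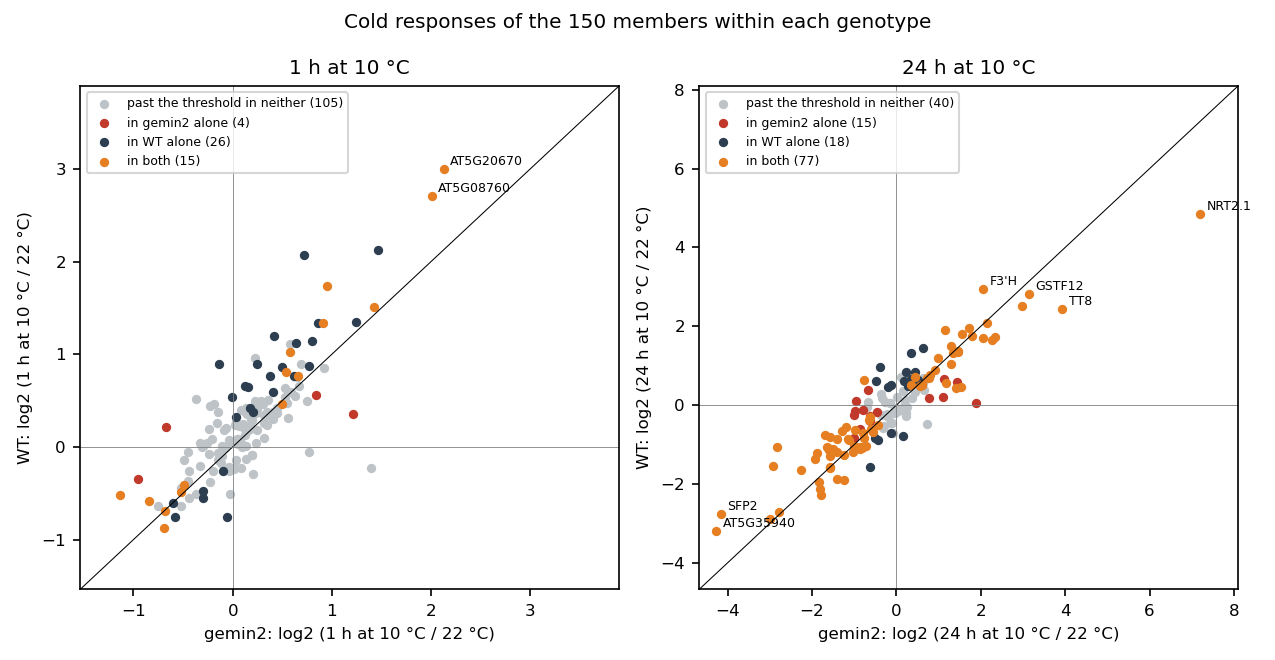
Log2 change of each member on cold against 22 °C in gemin2 (horizontal axis) and in WT (vertical axis) after 1 h and after 24 h, coloured by the genotypes in which it passed an adjusted p of 0.05, with the line of equal change. After 24 h most called members lie at the lower left or the upper right, with NRT2.1 farthest to the upper right and AT5G35940 farthest to the lower left.

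Counts in introns were a second measure of the members. The deposited table holds 529 member introns, and 74 of them, in 44 members, had enough counts to test. The share of an intron is its count over the count of its gene, and the gene count is the value that chose the members, so a share rises where intron counts stay level while the gene falls. The choice of members therefore favours higher shares in gemin2, and the adjusted p-values of shares are given as a description only. At 22 °C the share was higher in gemin2 for 3 member introns and lower for 1 (edgeR, adjusted p under 0.05 over 9366 introns), where 3.88% and 0.897% of all introns passed. After 1 h it was higher for 14 and lower for 1, against 11.9% and 1.64% of all, and after 24 h higher for 19 and lower for 1, against 14.9% and 1.57%. These are 4.05%, 18.9% and 25.7% of the 74 for the higher shares. The median log2 change in share was 0.34, 0.31 and 0.46 for the member introns, against 0.09, 0.24 and 0.23 for all. Without the gene count in the model, 21, 33 and 24 of the 74 introns had fewer counts in gemin2 past the threshold. None of the introns called higher at 22 °C had own counts that passed in either direction, and after 24 h 3 of the 19, in AT1G73600, AT2G04039 and ATRBL6, had more counts past the threshold and 7 had a log2 change below 0, none of them past it. After 1 h 1 of the 14 had more counts past the threshold and 3 had a log2 change below 0, none of them past it.

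The splice sites are printed for 7 of the 8 introns with the smallest adjusted p-values, to show what was read, and for intron I003 of GEMIN2, the mutated gene. The other one, I001 of AT1G73600, is described after them. Each 5′ site holds 6 bases of exon and 12 of intron, and each 3′ site 20 bases of intron and 4 of exon, on the gene's strand, with the first and last 2 bases of the intron in capitals, from the RefSeq sequence of TAIR10. PPL2 intron I009 lies at chr2:16477465-16477549 and I007 at chr2:16477284-16477367, AT2G04039 intron I001 at chr2:1333566-1333639, AT1G73600 intron I006 at chr1:27671943-27672021 and AT5G08760 intron I001 at chr5:2855044-2855219, all on the plus strand. ATRBL6 intron I008 lies at chr1:4347791-4348240, PSAE-1 intron I002 at chr4:14203226-14203630 and GEMIN2 intron I003 at chr1:20299245-20300121, on the minus strand.
PPL2 I009 5′ site: gaaacaGTaagcacagat
PPL2 I009 3′ site: tgactgatttgatgttgcAGacag
PPL2 I007 5′ site: aaagagGTcagatgattg
PPL2 I007 3′ site: aataagagatgaaaatgcAGaggg
AT2G04039 I001 5′ site: acattgGTttgtaatgtc
AT2G04039 I001 3′ site: tatgattcgtcttcttgcAGcaat
AT1G73600 I006 5′ site: acaaagGTgtgctaccta
AT1G73600 I006 3′ site: ggtacatgaattcctctcAGcttt
AT5G08760 I001 5′ site: acgcagGTctggtatata
AT5G08760 I001 3′ site: atgttcaacattttttctAGttac
ATRBL6 I008 5′ site: ctatcgGTgagcttcatt
ATRBL6 I008 3′ site: ctttctgttttggttcctAGaacc
PSAE-1 I002 5′ site: tctaagGTcagctaacct
PSAE-1 I002 3′ site: taaattgttgggattcgtAGgtca
GEMIN2 I003 5′ site: gcaatgGTaatctcgata
GEMIN2 I003 3′ site: ttgtatgattatttcttcAGaaga
All of these introns begin with GT and end with AG. Intron I001 of AT1G73600, at chr1:27669279-27670837, begins with GT and ends with TG as the deposited table bounds it, and overlaps the annotated start of CPuORF32.

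PPL2 held the introns that passed in all conditions together with I001 of AT1G73600. The share of PPL2 intron I009 at 22 °C was 3.91, 5.59 and 8.74% in gemin2, against 1.74, 0.966 and 0.897% in WT. After 1 h it was 5.71, 5.52 and 3.82% in gemin2, against 1.18, 0.640 and 0.874% in WT. After 24 h it was 4.09, 9.57 and 5.02% in gemin2, against 1.90, 1.58 and 0.933% in WT. The groups did not overlap, and the share rose by 2.32 ± 0.34, 2.51 ± 0.34 and 2.13 ± 0.45 on the log2 scale (adjusted p = 9.43e-05, 1.27e-05 and 9.93e-04). These shares rest on 178, 188 and 49 intron counts over 3 libraries in gemin2 and on 61, 60 and 28 in WT. The intron's own counts, without the gene count in the model, passed after 1 h alone, at 1.19 (adjusted p = 0.0195). At 22 °C and 24 h they changed by 0.86 and 0.96 without passing (adjusted p = 0.132 and 0.129). The share of I007 rose by 2.15 ± 0.31, 1.60 ± 0.30 and 1.90 ± 0.44.

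AT2G04039, annotated as a DUF2996 family protein, had higher shares for introns I001 and I003 after 1 h and 24 h, where the own counts of I003 changed by -0.45 after 1 h and 1.05 after 24 h without passing. The share of its intron I001 after 24 h was 9.45, 5.95 and 11.8% in gemin2, against 1.4975, 1.48 and 2.11% in WT (log2 change 2.42 ± 0.39, adjusted p = 5.68e-05), and the intron's own counts rose too, at 1.35 (adjusted p = 0.0191). Its retained-intron bin E004 had a share of 8.36, 6.49 and 5.59% in gemin2 after 24 h, against 1.16, 0.887 and 0.813% in WT (2.82 ± 0.53, adjusted p = 0.00132). That bin was the 1 member bin that passed in all 3 conditions, and at 22 °C the call was lost without library A of gemin2 (1.94) or library A or C of WT (1.81 and 1.83). ATRBL6, a rhomboid-like membrane protease, had a share of 6.79, 5.93 and 5.13% for intron I008 in gemin2 after 24 h, against 0, 0.266 and 0.760% in WT, on 37 counts in gemin2 and 8 in WT (3.93 ± 0.69, adjusted p = 1.43e-04). At 22 °C its groups overlapped, at 8.96, 9.83 and 4.42% in gemin2 and 2.19, 0.316 and 6.27% in WT.

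AT1G73600, a methyltransferase gene with a conserved upstream peptide, had shares of 2.17, 2.73 and 2.62% for I001 in gemin2 after 24 h, against 0.638, 0.603 and 0.770% in WT (1.91 ± 0.21, adjusted p = 3.24e-07). Its own counts did not pass, at 0.42 (adjusted p = 0.264). The share of intron I006 of the same gene rose by 2.98 ± 0.43 after 24 h (adjusted p = 1.26e-05). The share of AT5G08760 I001 rose by 1.32 ± 0.23 after 1 h and by 1.1955 ± 0.26 after 24 h, while its own counts changed by -0.53 and -0.10 without passing (adjusted p = 0.331 and 0.887). GEMIN2 intron I003 had a share of 11.4, 9.93 and 11.8% in gemin2 after 24 h, against 1.77, 3.18 and 3.46% in WT, with 47 counts in gemin2 and 57 in WT. The share rose by 1.91 ± 0.41 against a gene count that the rule had chosen as low, while the intron's own counts changed by -0.063 without passing (adjusted p = 0.941). The exception in direction was PSAE-1 I002, whose share at 22 °C was 0.582, 0.560 and 0.507% in gemin2, against 1.26, 1.27 and 0.879% in WT, a change of -1.05 ± 0.17 (adjusted p = 3.39e-04). It did not pass after 1 h or 24 h, at -0.20 and -0.09. Lower shares were also called for MLP423 I002 after 1 h and for CYP712A1 I001 after 24 h, which lies in a gene that overlaps another on the opposite strand.

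**Figure D5:**
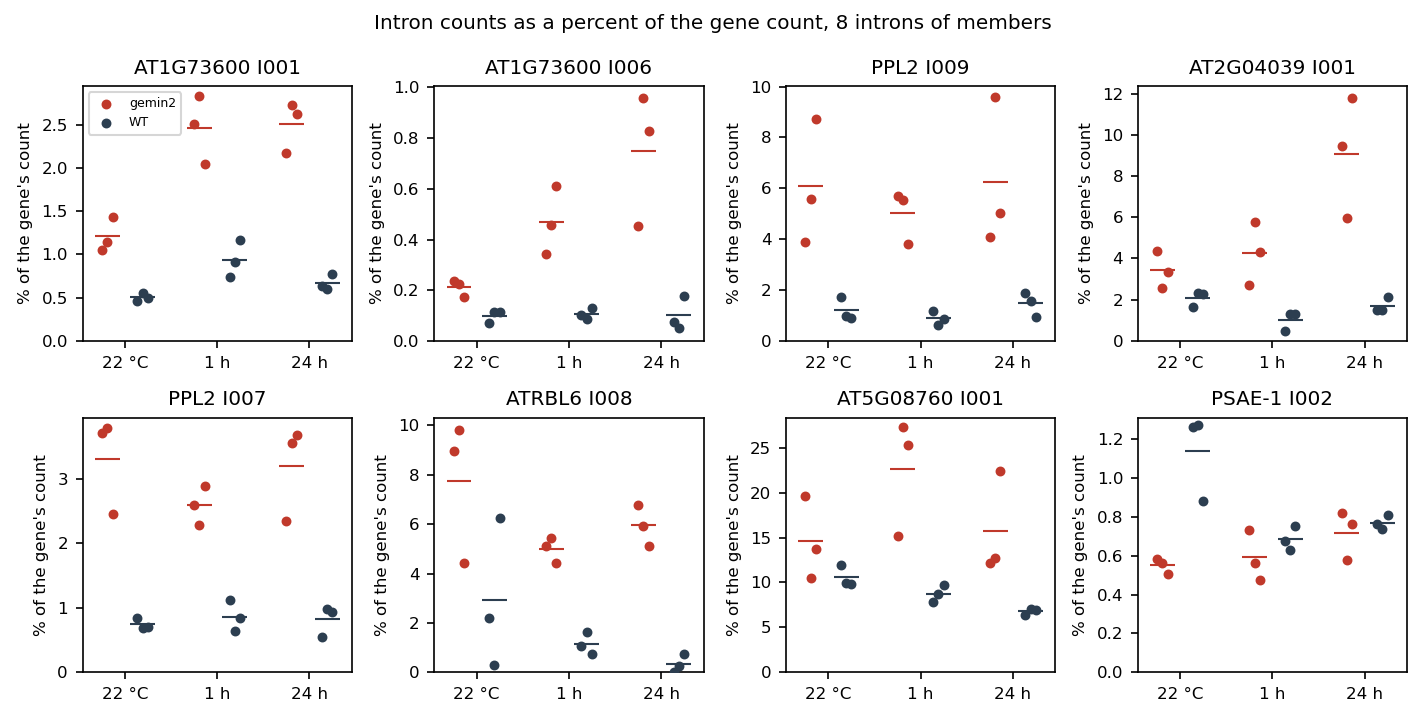
Counts of 8 introns as a percent of their gene's count, 1 point per library and a bar at the mean of 3, with gemin2 left of WT, at 22 °C and with 1 h and 24 h of cold. Both PPL2 introns stand higher in gemin2 in all 3 conditions, whereas PSAE-1 I002 stands lower in gemin2 at 22 °C, between 0.507 and 0.582%, against 0.879 to 1.27% in WT.

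Alternative splicing bins were tested for 23 bins in 16 members. Their shares are also over the gene count that chose the members, so the limit given for introns holds here too. A higher share in gemin2 was called for 1 bin at 22 °C, 2 after 1 h and 4 after 24 h, where 1.76%, 6.17% and 4.54% of all 3809 bins were called higher. A lower share was called for none at 22 °C and 1 h and for 1 after 24 h, where 0.788%, 2.42% and 1.26% were. The lower one was E002 of FBA2, 4 bases at an alternative 5′ splice site at chr4:18164127-18164130. Its share after 24 h was 0.0109, 0.0137 and 0.0054% in gemin2, against 0.0232, 0.341 and 0.348% in WT (-4.60 ± 0.95, adjusted p = 0.00339), so library A of WT stood near the mutant. After 1 h its share was 0.276, 0.0244 and 0.205% in gemin2, against 0.0587, 0.0570 and 0.0569% in WT, with the groups overlapping. The 2 bins called higher in LTP6 and RBCS3B after 24 h, both at alternative 3′ splice sites, had groups that overlapped, and the bin of AT4G37550, a retained intron, had shares of 6.84, 7.5 and 9.28% in gemin2 and 1.69, 3.39 and 2.45% in WT.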

How the data were processed

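Per the labels, poly(A) RNA of whole plants was sequenced in 18 libraries. The authors deposited read counts per gene, per intron and per splicing bin, and per the submitters' processing notes they used TopHat2 2.0.9, R 3.0.2, edgeR 3.4.2 and TAIR10; the counting program is not given in the sources used here. Of the introns with a strand, 98.7% began with GT and ended with AG in the sequence used here. Chloroplast genes were outside the CPM.

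Columns carry letters A to C that no source ties to the labelled replicate numbers, so columns were assigned to groups. Counts were scaled by TMM and tested with edgeR 4.0.16 (limma 3.58.1, R 4.3.3) in 1 fit of 6 groups, genes after filterByExpr. Introns and bins had the log of the gene count as offset, a mean of at least 10 counts, and a gene mean of at least 50 and at least 10 in each library. SE values come from the change and its F statistic. The fits were tested on simulated data. Tables of the authors' own comparisons were used for the allele name alone.

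The members, lists and comparisons were chosen with earlier results of these data known, and the 4 groups of members by role were made after their values were seen. The naming rule took GEMIN2, the members with the smallest maximum d, members of the lists, the 5 largest rises and falls of each cold response whose groups do not overlap, members with a called intron or bin (the 8 smallest adjusted p-values), neighbours, genes at the rule's limit, the members highest in WT, and the 5 most and least even in d; the text leaves some of these out for length, and AT2G04039, CSD2, ATCPSF30, DML1, WOX1, TIFY8, GEMIN2 I003 and others were named after their values were seen. Alternatives were RLE factors, DESeq2 1.42.0, no filter, fits of only the 2 compared groups, a replicate block, no offset, a mean of 3 counts, other settings of the rule and each library left out.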

Additional observations from a re-analysis of the deposited data

Results flagged for a closer look

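For 5 of the 150 members (3.33%) the CPM of every 24 h library was on 1 side of those at 22 °C in gemin2 and on the other side in WT, which held for 1.77% of the 17841 genes of the rule. With the TMM factors of the test it held for 1 of the 5, ATRBL6, and for 1.89% of the genes. The difference itself was not tested, since it is made of the values that chose the members. BGLU1 (AT1G45191), a beta-glucosidase family gene, had 2.24, 2.14 and 2.75 CPM in gemin2 after 24 h, against 4.00, 2.82 and 3.01 CPM at 22 °C (log2 change -0.39, adjusted p = 0.139), and 22.5, 20.6 and 27.7 CPM in WT, against 11.9, 9.16 and 14.03 CPM (0.97). TRM5 (AT3G63430) had 3.84, 1.95 and 3.41 CPM in gemin2 after 24 h, against 4.54, 5.57 and 5.31 CPM at 22 °C (-0.68), and its log2 change in WT was 0.38 (adjusted p = 0.136). ATRBL6 (AT1G12750) had a log2 change of -0.20 in gemin2 (adjusted p = 0.136) and 0.47 in WT. AT1G34580, a major facilitator family gene, changed by -0.77 in gemin2 and 0.64 in WT, and is the 1 member that passed the test in opposite directions, against 221 such genes among all 21918. AT2G25980, a mannose-binding lectin, had a log2 change of -0.49 in gemin2 (adjusted p = 0.0828) and 0.61 in WT. The adjusted p-values are from edgeR.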

How the results depend on the processing

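Of the 150 members, 122 to 139 were chosen again under another pseudocount, level minimum or scaling of the rule, and 134 to 148 without any 1 library; 92 were chosen in all 18 of those. The counts of members called after 24 h stayed within 1.5 times of those reported in every setting. After 1 h in gemin2, 18 members rose with the replicate block (11 without it) and 4 to 15 with a library left out, fewest without gemin2 22 °C library B (4) and 1 h library A (5). Falls in gemin2 after 1 h were 5 with only the 2 compared groups and 4 to 5 with any library left out, against 8. In WT after 1 h, 48 members rose with only the 2 compared groups, against 29, and 5 to 8 fell with a library left out, against 12 (7 without WT 1 h library A and 5 without B). Without the gene count in the model 21, 34 and 27 member introns and 9, 11 and 13 bins passed at 22 °C, 1 h and 24 h, mostly as fewer counts in gemin2. With a mean of 3 counts, 35 introns passed after 24 h, against 20, and 2 bins at 22 °C, against 1. With a library left out, 4 to 7 introns passed at 22 °C (7 without WT library C), 10 to 17 after 1 h and 13 to 23 after 24 h (13 without gemin2 library C), and 0 to 1, 1 to 5 and 2 to 6 bins. The bin at 22 °C was lost without gemin2 library A or WT library A or C, and all LTP6, RBCS3B and AT4G37550 bin calls were lost with at least 4 single libraries left out. Without the gene count the direction turned for AT5G08760 I001 (-0.53 after 1 h and -0.10 after 24 h), GEMIN2 I003 (-0.063 after 24 h), AT2G04039 I003 (-0.45 after 1 h), LTP6 E003 (-1.20 and -1.50) and RBCS3B E002 (-0.23). Of 750 settings over 71 named results, 663 kept direction and call, 80 lost the call and 7 turned. Single cold calls of members were least stable after 1 h, where 5 of 19 in gemin2 and 20 of 41 in WT were kept in every setting. After 24 h 74 of 92 in gemin2 and 74 of 95 in WT were kept. Libraries with the same letter deviated together weakly (correlations of -0.22 to 0.36, over 0.1 in 13 of 21 pairs), so the letters were not taken as pairs. In 1 of the 7 contrasts, gemin2 against WT after 24 h, all 3 pairs were over 0.1 (0.36, 0.35 and 0.20); there the replicate block gave 23 introns, against 20, and 6 bins, against 5, and kept the calls of the named ones. Low members are limited by depth: 3 counts are 0.0573 to 0.192 CPM.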
